A study of Mus musculus with 6 samples.

Results

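Genes of the Sertoli cell junctions and the blood-testis barrier were examined in testes of mice at 5 days postpartum (5 dpp) that lacked or retained *Srsf1* in germ cells. The genes were chosen by name as rows of the deposited expression table. They were the claudins *Cldn11*, *Cldn3* and *Cldn5*, the tight junction genes *Ocln*, *F11r*, *Jam2* and *Tjp1*, the gap junction gene *Gja1* and the adherens junction gene *Cdh2*. All 9 were found among the 54532 genes of the table, each in a single row, and all 9 were among the 16206 genes tested, whose average over the 6 samples reached 0.5 FPKM (fragments per kilobase of transcript, scaled to library size).

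RNA sequencing had been done on 3 control (Ctrl) and 3 conditional knockout (cKO) testis samples. In the cKO mice a Cre recombinase driven by *Vasa*, a germ-cell gene, acted on a floxed *Srsf1* allele opposite a deleted allele, while the labels give the genotype of the other group only as Ctrl. The driver is a germ-cell one, so junction genes carried by somatic cells were read largely in cells that the deletion did not target. Whole testis was sequenced, and each value sums the RNA of Sertoli, germ, interstitial, peritubular and vascular cells.

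*Srsf1* itself was at 82.1, 89.1 and 88.4 FPKM in the Ctrl samples and at 45.1, 46.3 and 51.6 FPKM in the cKO samples, with no overlap between groups (log2 fold change −0.85, limma adjusted p = 0.058). The library preparation text in the labels names retinas, but 6 retina markers were each at 0.311 FPKM or less and 12 Sertoli markers summed to 2174 to 3399 FPKM. The depth was 15448191 to 18964743 recovered reads per sample. Sample Ctrl 2 stood apart in its cell type markers, with a summed level of 11 germ-cell markers of 416 FPKM against 163 and 181 FPKM in the other Ctrl samples and the lowest Sertoli marker sum of all. Because bulk tissue was measured, fewer cells of a type and less RNA per cell cannot be told apart for any gene below.

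Sertoli cells line the seminiferous tubule and are joined near its base by tight, gap and adherens junctions that together form the blood-testis barrier. Claudins are the membrane proteins that seal the tight junction strands, occludin and the junctional adhesion molecules lie beside them, and zonula occludens proteins tie them to actin. Connexins form gap junction channels and classical cadherins hold the cells together by binding across the intercellular space. In the mouse the barrier is assembled around puberty, later than the age sampled here, although its genes are already transcribed in the immature testis.

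The sequences just upstream of *Cldn11* and *Cldn5* are shown because these were the members whose cKO and Ctrl samples did not overlap. They are the 250 bases before each RefSeq gene start in GRCm38.p6, written 5′ to 3′ on the strand of the gene, which is the plus strand for both. The *Cldn11* stretch is chr3:31149670-31149919 and the *Cldn5* stretch is chr16:18776597-18776846. Capitals mark CCAAT boxes and GC boxes, which read ATTGG and CCGCCC where they lie on the opposite strand.
Cldn11: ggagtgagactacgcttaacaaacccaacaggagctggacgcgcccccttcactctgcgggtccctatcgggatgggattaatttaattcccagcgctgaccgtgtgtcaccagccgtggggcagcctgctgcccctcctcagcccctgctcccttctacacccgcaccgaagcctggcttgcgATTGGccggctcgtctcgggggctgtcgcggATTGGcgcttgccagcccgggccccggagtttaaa
Cldn5: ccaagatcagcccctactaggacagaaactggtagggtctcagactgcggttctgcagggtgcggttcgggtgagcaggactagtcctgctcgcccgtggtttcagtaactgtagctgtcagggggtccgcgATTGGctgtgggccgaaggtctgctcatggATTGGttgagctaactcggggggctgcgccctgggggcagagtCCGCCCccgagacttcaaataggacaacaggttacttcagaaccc

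Both stretches held 2 CCAAT boxes on the opposite strand. In *Cldn11* they began 66 and 35 bases before the start, and in *Cldn5* 118 and 88 bases before it. The *Cldn5* stretch also held 1 GC box, 45 bases before the start. Of 32851 promoter windows of the same length, 33.8% held CCAAT on either strand, 10.1% held it at least 2 times, and 32.7% held the GC box GGGCGG. None of TATAAA, the E-box CANNTG, the GATA motif AGATAA or the SOX core ACAAT was found in these stretches on either strand, and these motifs were in 12.4%, 66.2%, 9.99% and 27.7% of all windows. No match overlapped another. The *Cldn11* stretch held 19 CpG and the *Cldn5* stretch 12, against a median of 6 over all windows. Genes whose groups overlapped held such features too. *F11r* held 3 CCAAT boxes, 1 GC box and 17 CpG, and *Tjp1* 2 GC boxes and 22 CpG. The 2 windows of *Ocln* held 14 and 22 CpG. *Cldn3* held 9 CpG and *Gja1* 6. A match of this kind describes the letters and not the binding of a factor. Sequence was found for 7 of the 9 genes.

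Among the 9 genes, *Cldn11* was lower in cKO testes (49.5% of the Ctrl mean) and *Cldn5* was higher (1.48-fold), neither past the adjusted threshold, while the other 7 overlapped between the groups. *Cldn11*, the principal claudin of Sertoli cell tight junctions, lies at chr3:31149920-31164324 on the plus strand in mm10 and has 3 exons (ENSMUSG00000037625). Its level was 70.6, 45.2 and 50.3 FPKM in Ctrl testes and 23.1, 34.6 and 24.3 FPKM in cKO. Every cKO sample lay below every Ctrl sample. Its Ctrl mean was 55.3 ± 13.4 FPKM and its cKO mean 27.4 ± 6.32 FPKM (SD, n = 3 each), so that the cKO mean was 49.5% of the Ctrl mean. On the log2(FPKM + 1) scale its log2 fold change was −0.99 (SE 0.205, 95% interval −1.47 to −0.50). The limma p-value was 0.0018 before and 0.113 after Benjamini-Hochberg adjustment over the 16206 genes. The value rested on 681 to 2136 reads per sample. Without Ctrl 2 the log2 fold change was −1.12 (limma adjusted p = 0.149).

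*Cldn5*, best known as the claudin of endothelial tight junctions and also found in Sertoli cells, lies at chr16:18776847-18778262 on the plus strand and is a single exon (ENSMUSG00000041378). Its level was 10.5, 12.7 and 11.2 FPKM in Ctrl testes and 16.2, 15.9 and 18.7 FPKM in cKO. Every cKO sample lay above every Ctrl sample. Its Ctrl mean was 11.5 ± 1.12 FPKM and its cKO mean 16.9 ± 1.54 FPKM (SD, n = 3 each), a ratio of 1.48. The log2 fold change was 0.53 (SE 0.104, 95% interval 0.28 to 0.77), and the limma p-value was 0.0013 before and 0.107 after adjustment. From 240 to 409 reads per sample lay behind it. Without Ctrl 2 the log2 fold change was 0.59 (limma adjusted p = 0.124).

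*Cldn3*, which is expressed at tight junctions newly formed by Sertoli cells later in life, lies at chr5:134986214-134987472 on the plus strand and is a single exon (ENSMUSG00000070473). It was the lowest of the 9 genes, at 0.785, 2.38 and 1.15 FPKM in Ctrl testes and 0.555, 0.856 and 1.44 FPKM in cKO. The highest value belonged to Ctrl 2 and the groups overlapped. The log2 fold change was −0.29 (95% interval −0.93 to 0.34, limma adjusted p = 0.626), and it was −0.03 without Ctrl 2. It rested on only 11 to 57 reads per sample, and its interval was the widest of the 9 genes. An antisense gene, *Wbscr25*, overlaps its exon and was at 0.060 FPKM or less in every sample. Markers of duct epithelium, another tissue in which *Cldn3* is expressed, summed to 4.84, 8.20 and 7.36 FPKM in Ctrl testes and 3.83, 8.38 and 12.2 FPKM in cKO, and their part in the *Cldn3* level was not tested.

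**Figure D1:**
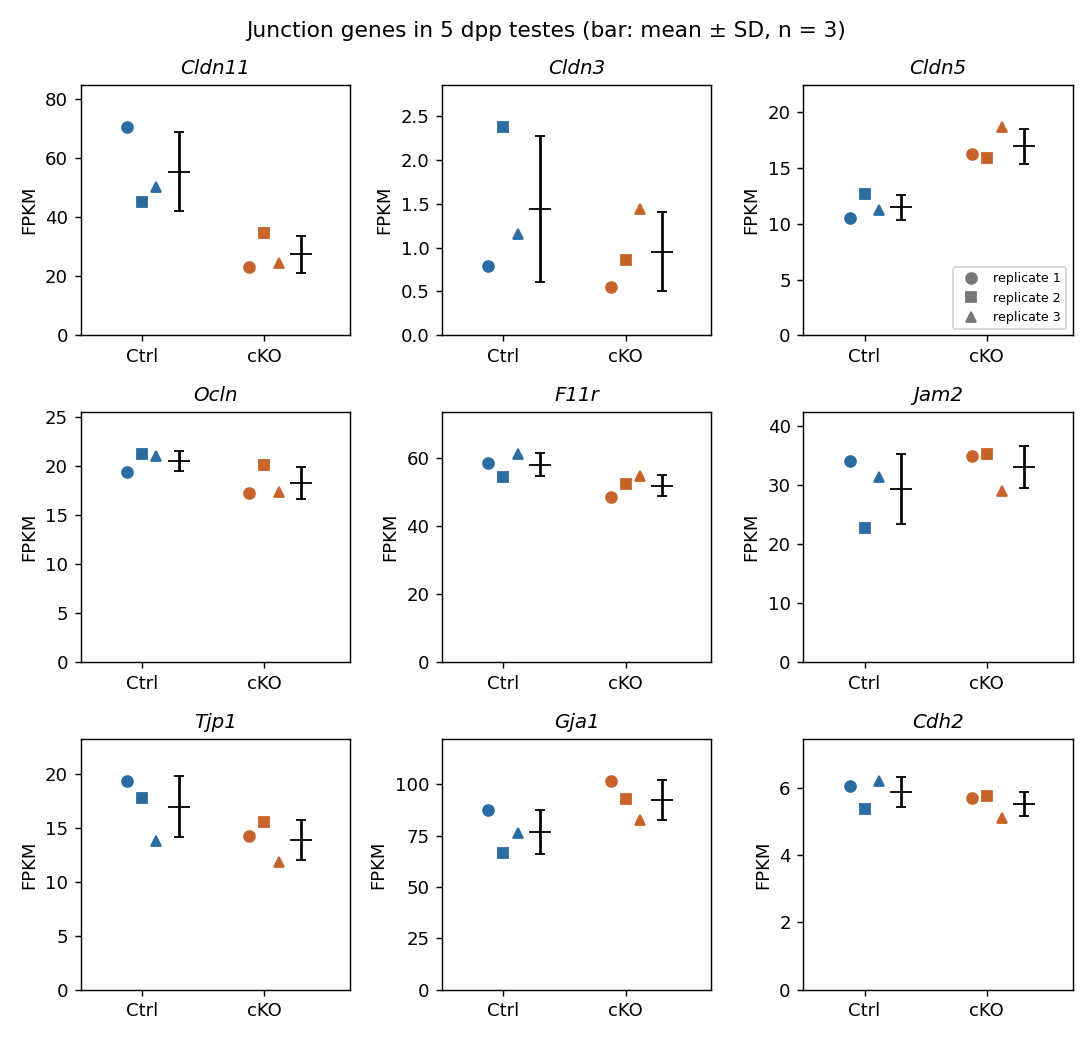
FPKM of the 9 junction genes in each 5 dpp testis sample. Points are samples, with the shape giving the replicate number, and the bars give the mean ± SD of 3 samples, each panel on its own axis from 0. The cKO samples of *Cldn11* lie between 23.1 and 34.6 FPKM, below all Ctrl samples, and those of *Cldn5* lie between 15.9 and 18.7 FPKM, above all Ctrl samples.

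The 4 other tight junction genes differed little. *Ocln* encodes occludin, a membrane protein of the tight junction strands (ENSMUSG00000021638, chr13:100496507-100552718, minus strand). It was at 19.4, 21.27 and 21.05 FPKM in Ctrl testes and at 17.3, 20.1 and 17.4 FPKM in cKO. Only cKO 2 reached into the Ctrl range, and the log2 fold change was −0.16 (95% interval −0.38 to 0.05, limma adjusted p = 0.428). *Tjp1* encodes ZO-1, the scaffold that links tight junction proteins to actin (ENSMUSG00000030516, chr7:65296165-65527781, minus strand). It was at 19.4, 17.8 and 13.8 FPKM in Ctrl testes and at 14.3, 15.6 and 11.9 FPKM in cKO. Ctrl 3 lay below cKO 1 and cKO 2, and the log2 fold change was −0.27 (95% interval −0.61 to 0.08, limma adjusted p = 0.427). It was −0.40 without Ctrl 3, −0.17 without Ctrl 1 and −0.16 without cKO 3.

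*F11r* and *Jam2* encode the junctional adhesion molecules JAM-A and JAM-B. *F11r* (ENSMUSG00000038235, chr1:171437535-171464603, plus strand) was at 58.6, 54.6 and 61.3 FPKM in Ctrl testes and at 48.7, 52.4 and 54.9 FPKM in cKO. Its groups met at a single pair of samples, since cKO 3 lay just above Ctrl 2, and the log2 fold change was −0.16 (95% interval −0.36 to 0.04, limma adjusted p = 0.416). *Jam2* (ENSMUSG00000053062, chr16:84774123-84825928, plus strand) was at 34.1, 22.8 and 31.5 FPKM in Ctrl testes and at 35.0, 35.4 and 29.0 FPKM in cKO. The lowest value belonged to Ctrl 2, and the log2 fold change of 0.18 (95% interval −0.20 to 0.55, limma adjusted p = 0.615) was 0.01 without that sample. The ratio of *F11r* to *Jam2* was 2.02 ± 0.347 (SD, n = 3) in Ctrl testes and 1.59 ± 0.265 (SD, n = 3) in cKO, with overlapping samples (exact permutation test, two-sided, p = 0.2, adjusted p = 0.24).

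*Gja1* encodes connexin 43, the main gap junction protein of Sertoli cells (ENSMUSG00000050953, chr10:56377330-56402513, plus strand). It had the highest level of the 9 genes in both groups, at 87.7, 66.4 and 76.3 FPKM in Ctrl testes and at 101.6, 92.8 and 82.6 FPKM in cKO. The samples cKO 1 and cKO 2 lay above the Ctrl range and cKO 3 lay inside it. The log2 fold change was 0.27 (95% interval −0.03 to 0.57, limma adjusted p = 0.365), and 0.17 without Ctrl 2. *Cdh2* encodes N-cadherin, the cadherin through which Sertoli cells adhere to each other and to germ cells (ENSMUSG00000024304, chr18:16588877-16809246, minus strand). It was at 6.06, 5.36 and 6.20 FPKM in Ctrl testes and at 5.70, 5.74 and 5.10 FPKM in cKO. The groups overlapped and the interval of its log2 fold change was narrow, at −0.30 to 0.14 around −0.08 (limma adjusted p = 0.725). With each sample left out in turn it ran from −0.13 without Ctrl 2 to −0.03 without cKO 3.

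**Figure D2:**
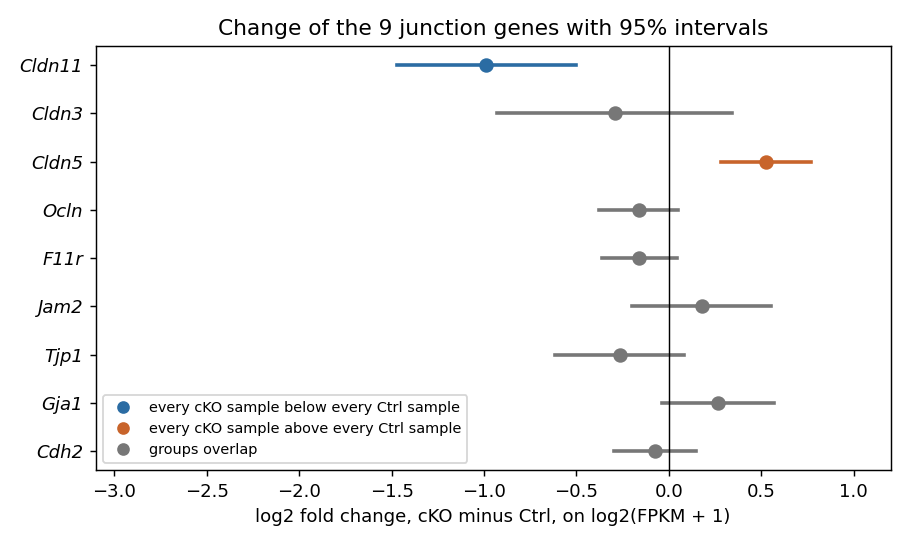
Log2 fold change of the 9 genes, cKO minus Ctrl, on the log2(FPKM + 1) scale (x axis), with 95% intervals from limma as lines and 3 samples per group. *Cldn11* at −0.99 and *Cldn5* at 0.53 have intervals that do not reach 0, and the other 7 intervals cross it, as intervals not adjusted for the number of genes tested.

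At an adjusted p of 0.05, limma called 0 of the 9 genes lower and 0 higher, and over all 16206 genes it called 0% lower and 0% higher. At an unadjusted p under 0.05, 1 of the 9 was lower (*Cldn11*) against 9.31% of all genes, and 1 of the 9 was higher (*Cldn5*) against 6.6%. The same genes were the members without overlap between groups, 1 lower against 12.8% of all genes and 1 higher against 10.3%. A count of 1 gene in 9 is a share close to these backgrounds, so the counts by themselves do not set the 9 genes apart. The median log2 fold change was −0.16 over the 9 genes and 0.0027 over all tested genes.

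The calls depended on which genes entered the fit. When it was restricted to the 13204 protein-coding genes, *Cldn11* had an adjusted p of 0.049 and *Cldn5* one of 0.050 by limma. Each was therefore called, against 1.33% of protein-coding genes called lower and 0.28% called higher. With limma voom on the recovered reads the adjusted p-values were 0.054 and 0.080, and with sample weights 0.062 and 0.058.

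The order of the 9 levels, compared per length as FPKM, differed between the groups in the place of the claudins. In Ctrl testes it ran *Gja1*, *F11r*, *Cldn11*, *Jam2*, *Ocln*, *Tjp1*, *Cldn5*, *Cdh2* and *Cldn3*. The sample ranges of *F11r* and *Cldn11*, and of *Ocln* and *Tjp1*, overlapped, and those of the other neighbours did not. In cKO testes *Jam2* (33.1 ± 3.55 FPKM, SD, n = 3) stood above *Cldn11*, with overlapping ranges, and *Cldn5* stood above *Tjp1* (13.9 ± 1.86 FPKM, SD, n = 3), with ranges that did not overlap. The ranges of *Ocln* and *Cldn5* overlapped in cKO.

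The shares of *Cldn11* and *Cldn5* among the claudin transcripts differed between the groups without overlap. Of 23 claudins in the table, 9 were tested and 3 were listed at 0 in every sample. Their summed level was 93.5 ± 12.8 FPKM in Ctrl testes and 72.0 ± 7.46 FPKM in cKO (SD, n = 3 each), without overlap. *Cldn11* made up 65.2%, 52.8% and 58.1% of the sum in Ctrl and 35.9%, 43.6% and 33.7% in cKO. *Cldn5* made up 9.67%, 14.8% and 13.0% in Ctrl and 25.2%, 19.98% and 25.9% in cKO. The *Cldn3* share was 1.61% and 1.31% on average and its samples overlapped. The remaining 20 claudins together made up 27.2% in Ctrl and 37.2% in cKO as group means, while 19 of them summed to 23.8 to 26.3 FPKM in Ctrl testes and 24.5 to 28.0 FPKM in cKO.

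The ratio of *Cldn11* to *Cldn5* put both into a single value per sample. It was 6.74, 3.56 and 4.47 in Ctrl and 1.42, 2.18 and 1.30 in cKO. Because every cKO sample was lower in *Cldn11* and higher in *Cldn5*, this ratio could not overlap between groups. Its exact permutation p was thus fixed in advance, and the ratio is given only as a description. The sum and the shares of *Cldn11*, *Cldn5* and the remaining claudins each gave the smallest two-sided p that an exact permutation of 3 against 3 samples allows, 0.1. The adjusted p was 0.15 over the 12 measures compared, and the ratio of *Cldn11* to *Cldn5* was counted among those 12. The sum, the shares and this ratio were chosen after the levels had been seen and are built from the same levels. They are therefore no separate evidence of the differences in *Cldn11* and *Cldn5*.

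**Figure D3:**
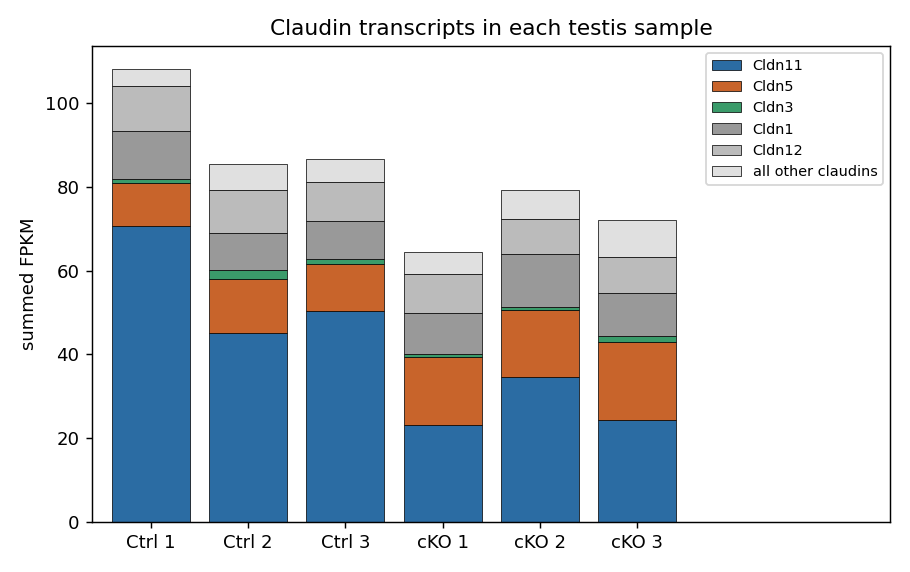
Summed FPKM of all 23 claudins in each sample (y axis), stacked by gene, with 1 bar per testis sample. The *Cldn11* block is the largest in every bar and is shorter in each cKO bar, and the bars reach 64.4 to 79.4 FPKM in cKO against 85.5 to 108.3 FPKM in Ctrl, while the *Cldn5* block is taller in each cKO bar.

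The other claudins at an appreciable level were *Cldn1* and *Cldn12*, both widely expressed in epithelia. *Cldn1* was at 11.5, 8.62 and 9.16 FPKM in Ctrl testes and 9.81, 12.7 and 10.1 FPKM in cKO. *Cldn12* was at 10.7, 10.3 and 9.44 FPKM in Ctrl testes and 9.44, 8.41 and 8.70 FPKM in cKO. Neither gene had groups clear of each other.

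*Cldn11* was set beside markers of the Sertoli cells that express it. The 12 Sertoli markers, none of them at 0, summed to between 2174 and 3304 FPKM in Ctrl testes and between 2916 and 3399 FPKM in cKO, and had a median log2 fold change of −0.05. Without overlap, 3 markers were lower in cKO (*Aard*, *Rhox8* and the stem cell factor gene *Kitl*), against 12.8% of all tested genes. In the same way 1 was higher (*Amh*, anti-Müllerian hormone), against 10.3%. They were named after their values were seen, and limma called none of the 12 markers. The difference between *Cldn11* and the mean of these markers on the log2(FPKM + 1) scale was −0.68, −0.88 and −1.22 in Ctrl and −2.08, −1.58 and −2.10 in cKO. The groups differed by −0.99, about as much as *Cldn11* by itself, with no overlap (exact permutation test, two-sided, p = 0.1, the smallest possible). The difference was −0.97 without Ctrl 2.

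Germ-cell markers, like *Cldn11*, were lower in cKO, but within the Ctrl group they ran in the opposite order. All 11 tested germ-cell markers were lower in cKO without overlap, with a median log2 fold change of −1.73, and their sum was 163, 416 and 181 FPKM in Ctrl testes and 39.6, 81.1 and 50.6 FPKM in cKO. Within the Ctrl group the highest germ-cell sum, in Ctrl 2, lay beside the lowest *Cldn11* level. The lowest germ-cell sum, in Ctrl 1, lay beside the highest *Cldn11* level. Within the cKO group cKO 2 had both the highest germ-cell sum and the highest *Cldn11* level. Oligodendrocytes are another cell type known for *Cldn11*, and all 4 of their markers were at 0.323 FPKM or less. The part of the germ cells in the *Cldn11* level was not tested.

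The summed endothelial markers, like *Cldn5*, were higher in cKO, but within the Ctrl group they ran in the opposite order. The 9 endothelial markers, none of them at 0, summed to 63.4, 52.3 and 54.3 FPKM in Ctrl testes and to 74.9, 67.4 and 73.5 FPKM in cKO. Within Ctrl the highest marker sum, in Ctrl 1, lay beside the lowest *Cldn5* level. Within cKO the highest marker sum was in cKO 1 and the highest *Cldn5* level in cKO 3. Of the 9 markers 3 (*Pecam1*, *Tie1* and *Ptprb*, named after their values were seen) were higher in cKO without overlap, against 10.3% of all genes. None was lower without overlap, against 12.8%, although *Kdr* had a log2 fold change of −0.06. Limma called none of the 9 markers. Their median log2 fold change of 0.23 was below the 0.53 of *Cldn5*. On the log2(FPKM + 1) scale *Cldn5* exceeded the mean of the markers by 1.13, 1.479 and 1.28 in Ctrl and by 1.481, 1.65 and 1.60 in cKO. The groups differed by 0.28 and were separated only by the small gap between Ctrl 2 and cKO 1 (exact permutation test, two-sided, p = 0.1). With a pseudocount of 0.1 or on the TPM scale this gap closed (differences 0.26 and 0.27, exact permutation p = 0.2 each). This measure was also chosen after the levels had been seen, and the part of endothelial cells in the *Cldn5* level was not tested further.

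**Figure D4:**
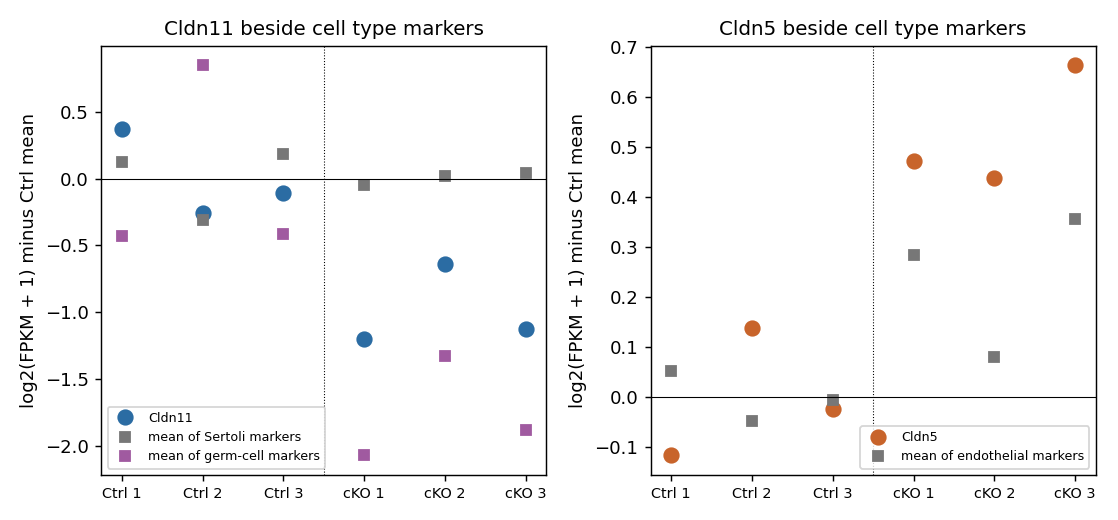
Level of *Cldn11* (left) and *Cldn5* (right) in each sample beside the mean of marker lists, as log2(FPKM + 1) minus the Ctrl mean of the same quantity (y axes, on different scales). In the cKO samples *Cldn11* lies below the Sertoli marker mean and above the germ-cell marker mean, and *Cldn5* lies above the endothelial marker mean.

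*Gja1* was read against the connexin family, and *Cdh2* against a single other cadherin gene, *Cdh1*. Of the 20 connexins listed, 8 were tested, and *Gja1* made up 78.9% of their summed FPKM in Ctrl testes and 80.4% in cKO as group means (exact permutation test, two-sided, p = 0.8). The summed connexin level was 97.0 ± 9.16 FPKM in Ctrl testes and 114.6 ± 6.40 FPKM in cKO (SD, n = 3 each), without overlap (exact permutation p = 0.1, adjusted p = 0.15). The ratio of *Cdh2* to *Cdh1* was 2.57 ± 0.614 in Ctrl and 4.07 ± 1.16 in cKO (SD, n = 3 each), with overlapping samples (exact permutation p = 0.2). *Cdh1* encodes E-cadherin, which undifferentiated spermatogonia carry, and was at 2.35 ± 0.419 FPKM in Ctrl testes and 1.42 ± 0.329 FPKM in cKO (SD, n = 3 each). The ratio is no share of the cadherin family. It left out the more abundant *Cdh3* (means of 16.0 FPKM in Ctrl and 21.2 FPKM in cKO) and *Cdh11* (20.8 and 22.5 FPKM).

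The other genes of the junctions were described by lists of 104 genes in all, of which 70 passed the filter. Limma called none of them. Between groups 4 did not overlap and were lower in cKO, against 12.8% of all tested genes. Another 10 did not overlap and were higher, against 10.3%. The other 56 overlapped, and the median log2 fold change of the 70 genes was 0.06. Their medians were 0.15 for 6 other claudins, 0.05 for 21 other tight junction genes, 0.04 for 14 other adherens junction genes, 0.19 for 8 other gap junction genes, 0.04 for 16 genes of the ectoplasmic specialisation (the actin-based adhesion of Sertoli cells) and −0.05 for 5 desmosome genes. By size of the log2 fold change, *Cldn11* stood beyond all 70 and *Cldn5* beyond all but *Dsp*.

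Of these genes *Dsp*, which encodes the desmosomal linker desmoplakin, differed most, at 2.99 ± 0.438 FPKM in Ctrl testes and 6.12 ± 0.525 FPKM in cKO (SD, n = 3 each). Its log2 fold change was 0.84 with a limma adjusted p of 0.069. *Cdh3*, which encodes P-cadherin, was at 16.0 ± 0.613 FPKM in Ctrl testes and 21.2 ± 0.266 FPKM in cKO (log2 fold change 0.38, limma adjusted p = 0.105). *Itga6*, an integrin subunit of the ectoplasmic specialisation that is also carried by spermatogonia, was at 18.0 ± 1.09 FPKM in Ctrl testes and 13.4 ± 0.950 FPKM in cKO (log2 fold change −0.40, limma adjusted p = 0.125).

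The other named genes without overlap had smaller or less certain differences. Higher in cKO were the connexin gene *Gja4*, the nectin gene *Nectin1*, the endothelial adhesion gene *Esam*, the claudin *Cldn7* and the kinase gene *Yes1*, with log2 fold changes of 0.40, 0.42, 0.33, 0.25 and 0.20. Lower were *Cdh1*, the desmosomal cadherin gene *Dsc2* and the scaffold gene *Amot*, with log2 fold changes of −0.47, −0.30 and −0.07. Their limma adjusted p-values lay between 0.181 for *Gja4* and 0.725 for *Amot*. *Esam* was apart only by the small gap between Ctrl 2 (5.04 FPKM) and cKO 2 (5.07 FPKM). Both *Gja4* and *Esam* are known from vascular endothelium, whose markers had the sums given above for *Cldn5*. The part of endothelial cells in the levels of *Gja4* and *Esam* was not tested.

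**Figure D5:**
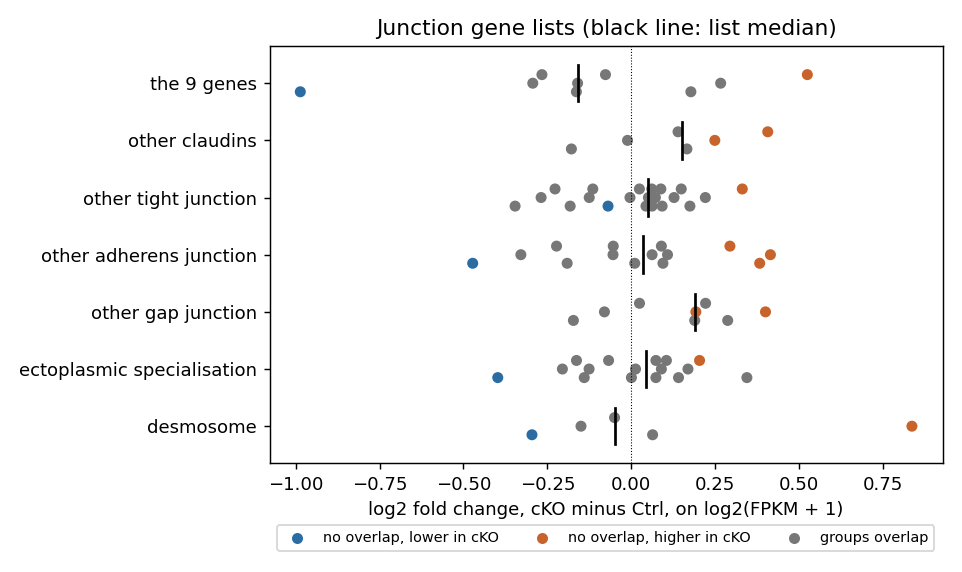
Log2 fold change, cKO minus Ctrl, on the log2(FPKM + 1) scale (x axis) of each tested junction gene, by list, with 1 point per gene and a black line at the median of each list. *Cldn11* is the leftmost point of all at −0.99, *Dsp* the rightmost at 0.84, and the list medians lie between −0.16 and 0.19.

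The genes whose pattern was most like that of *Cldn11* over the 6 samples were *Zmat1*, *Trim68*, *Clec12b*, *Appbp2* and *Dmrta1*, with Pearson's r of 0.993, 0.991, 0.990, 0.977 and 0.977 on the log2(FPKM + 1) scale. They were the highest of 8241 protein-coding genes averaging 5 FPKM or more and were picked for this measure, and the samples share their group difference. Within groups, the correlation of the deviations from the group means was 0.983, 0.966, 0.952, 0.970 and 0.918. These values come from the same samples by which the genes were picked and are no separate evidence. Their own log2 fold changes were smaller than that of *Cldn11*, from −0.71 for *Clec12b* to −0.20 for *Appbp2*. None of the other 8 junction genes was among them.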

How the data were processed

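Testes of 5 dpp mice were compared as 3 Ctrl and 3 cKO samples, grouped by the sample titles. The authors sequenced poly(A) libraries, aligned the reads to mm10 with HISAT2 2.0.5, counted them with featureCounts and derived FPKM from gene length. The deposited FPKM of 54532 genes were used, with the deposited gene length in bases. The annotation release is not given in the sources used here, but all 9 genes had the coordinates of GENCODE mouse release 21. FPKM times length gave whole reads (100% within 0.01), so library sizes could be recovered, and the deposited FPKM proved to carry median-of-ratios scaling between libraries. A gene of 1 kb with 3 reads would have 0.158 to 0.194 FPKM, a floor for counting error only. All per-sample columns were used.

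Groups were compared with limma 3.58.1 (R 4.3.3), fitted to log2(FPKM + 1) with a mean-variance trend for genes averaging 0.5 FPKM or more, two-sided, with Benjamini-Hochberg adjustment over 16206 genes and a threshold of 0.05. The log2 fold change understates changes of low genes. Ratios and shares were compared by exact permutation of the 6 samples. The main fit and the voom fit were also run on simulated reads with a typical spread at each expression level. No result here rests on that run. Each sample is taken as a replicate, although nothing says whether it came from a separate mouse or a pool, so p-values measure the spread between these samples. Replicates differed by more than sampling noise, with chi-square per degree of freedom of 10.3 to 26.0.

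The 9 genes, the junction lists and the marker lists (Sertoli, germ, Leydig, peritubular myoid, endothelial, macrophage, duct epithelium, retina, oligodendrocyte) were chosen with earlier results of these data known. Other junction genes were named as up to 2 per list and direction with the largest change among those without overlap averaging 1 FPKM or more, with the 5 genes most like *Cldn11*. In all, 16 alternatives were run: a filter at 1 FPKM or none, a pseudocount of 0.1, TPM, quantile normalization, no trend, sample weights, a replicate block, voom on the recovered reads, protein-coding genes only, and leaving out each of the 6 samples.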

Additional observations from a re-analysis of the deposited data

How the results depend on the processing

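Each of the 9 genes kept the direction of its change under all 16 alternatives, with log2 fold changes of −1.16 to −0.80 for *Cldn11* (limma adjusted p from 0.049 to 0.332) and 0.46 to 0.59 for *Cldn5* (0.050 to 0.325). The ranges were −0.57 to −0.03 for *Cldn3*, −0.23 to −0.13 for *Ocln*, −0.40 to −0.16 for *Tjp1*, −0.22 to −0.11 for *F11r*, 0.01 to 0.29 for *Jam2*, 0.17 to 0.37 for *Gja1* and −0.13 to −0.03 for *Cdh2*. Calls of the 9 genes were made under a single alternative, protein-coding genes only, with 1 lower and 1 higher. The fit behind the main values called 0 genes lower and 0 higher among all genes, while 1508 and 1069 had an unadjusted p under 0.05. The counts lower and higher were 1 and 4 on the TPM scale, 0 and 1 without the trend, 176 and 37 for protein-coding genes only, 61 and 22 with voom, and 55 and 13 with sample weights. With a replicate left out they ran from 0 to 15 lower and from 0 to 3 higher, with 15 and 3 without Ctrl 2 and 2 and 3 without Ctrl 3. *Srsf1* was called under 5 alternatives. The cause of these shifts was not tested.

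In a fit with a replicate block, 84 genes were called lower and 14 higher, and none of the 9, with *Cldn11* at an adjusted p of 0.161 and *Cldn5* at 0.129 by limma. Same-numbered samples hardly deviated together, with correlations of 0.066, 0.016 and 0.088, so the numbers were not taken as pairs.

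The *Cldn11* difference from the Sertoli markers stayed between −1.16 and −0.87 with each sample left out. That of *Cldn5* from the endothelial markers ranged from 0.20 to 0.38, with an exact permutation p of 0.1 without Ctrl 2 or Ctrl 3 and 0.2 with any other single sample left out. The measures of claudin makeup and the *Cldn5* difference were added after seeing the data. The depth limits *Cldn3* most, at 11 to 57 reads.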

Other observations

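Markers of the remaining testis cell types that contact the tubules were also read. The 7 tested Leydig cell markers, genes of the steroid-producing interstitial cells, summed to 364 to 545 FPKM in Ctrl and 586 to 683 FPKM in cKO, and without overlap 3 were higher (*Cyp11a1*, *Insl3* and *Lhcgr*) and 1 lower (*Cyp11b1*). The 6 markers of peritubular myoid cells, the contractile cells that surround the tubule, summed to 521 to 533 FPKM in Ctrl and 328 to 511 FPKM in cKO, and without overlap 2 were lower (*Acta2* and *Myh11*) and 1 higher (*Des*), all named after their values were seen. The 7 macrophage markers and the 5 tested duct epithelium markers all overlapped between groups, with median log2 fold changes of 0.06 and 0.04. Limma called none of these genes at an adjusted p of 0.05. Over all tested genes 12.8% were lower and 10.3% were higher in cKO without overlap.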
